A study of Mus musculus with 6 samples.

Results

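Tanycytes are the radial glia-like cells that line the floor and lower walls of the third ventricle, with long processes that reach into the hypothalamic parenchyma or the median eminence. They move hormones between blood, cerebrospinal fluid, and hypothalamic neurons, and they keep features of neural progenitors into adulthood. In mice they are recognized by the transcription factors Rax and Lhx2, the receptor Gpr50, the sodium channel Scn7a, the transmembrane collagen Col23a1, the intermediate filaments Vim and Nes, and the growth factor Fgf10. These 8 genes were followed here. They were taken by gene symbol from the platform annotation of the deposited value table, with the brightest row kept per gene, and all 8 were among the 21507 genes tested. Fgf10 had 2 rows and each of the others had 1.

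Hypothalamic RNA from male mice on chow was hybridized to 6 Affymetrix arrays after whole-transcript labeling. In 3 of them the label is Slug fl/fl (control arrays below), and in the other 3 it is Slug fl/fl;LepR Cre/Cre, named Slug ΔLepRb in the study (ΔLepRb arrays below). All mice carried the floxed Slug (Snai2) alleles. The ΔLepRb mice also carried Cre on both alleles of the leptin receptor gene, where it acts in cells that make the long receptor form, which are a part of the cells sampled. The labels give an age of 8 weeks and name a CreERT2 line, whereas the study's methods give a somewhat older age and a knockin at the receptor gene. Mice with Cre and intact Slug were not analysed here. How many mice gave RNA to each array is not in the labels, so p-values measure only the spread between these arrays.

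The array medians lay between 4.04 and 4.07 on the log2 scale. Hypothalamic transcripts were bright, with Avp (vasopressin) between 8.99 and 9.86 and Pmch (melanin-concentrating hormone) between 9.29 and 9.77. Snai2, the targeted gene, ran from 3.79 to 4.23 in the control arrays and from 9.68 to 10.49 in the ΔLepRb arrays, which goes against the deletion that the label names. Which part of the Snai2 transcript the row covers was not analysed here, and the group names below are those of the labels only. Whether the labels were exchanged was not tested, and an exchange would turn the sign of every difference below. Lepr, the leptin receptor gene at which Cre was inserted, was higher by 0.47 (adjusted p = 0.74, limma) with the groups apart, and it passed the unadjusted call defined below here and in all 15 alternative fits.

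None of the 8 tanycyte marker genes was called in either direction. A call was an unadjusted limma p under 0.05 with a mean more than 25% higher or lower on the linear scale, which 2.01% of all genes passed (309 or 1.44% higher and 124 or 0.577% lower). An adjusted p under 0.05 was reached by 3 genes, 0.0139% of all, and by none of the 8. None of the 8 had an unadjusted limma p under 0.05 at any fold, against 5.85% of all genes. In none of the 8 were the groups apart, against 11.5% of all genes whose 3 arrays of one group all lay on the same side of the other 3. The means of 4 genes were higher and those of 4 were lower in the ΔLepRb arrays, with a median log2 difference of -0.0010, beside 0.0021 over all genes. In a whole hypothalamus, fewer tanycytes and less RNA per tanycyte cannot be told apart.

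**Figure D1:**
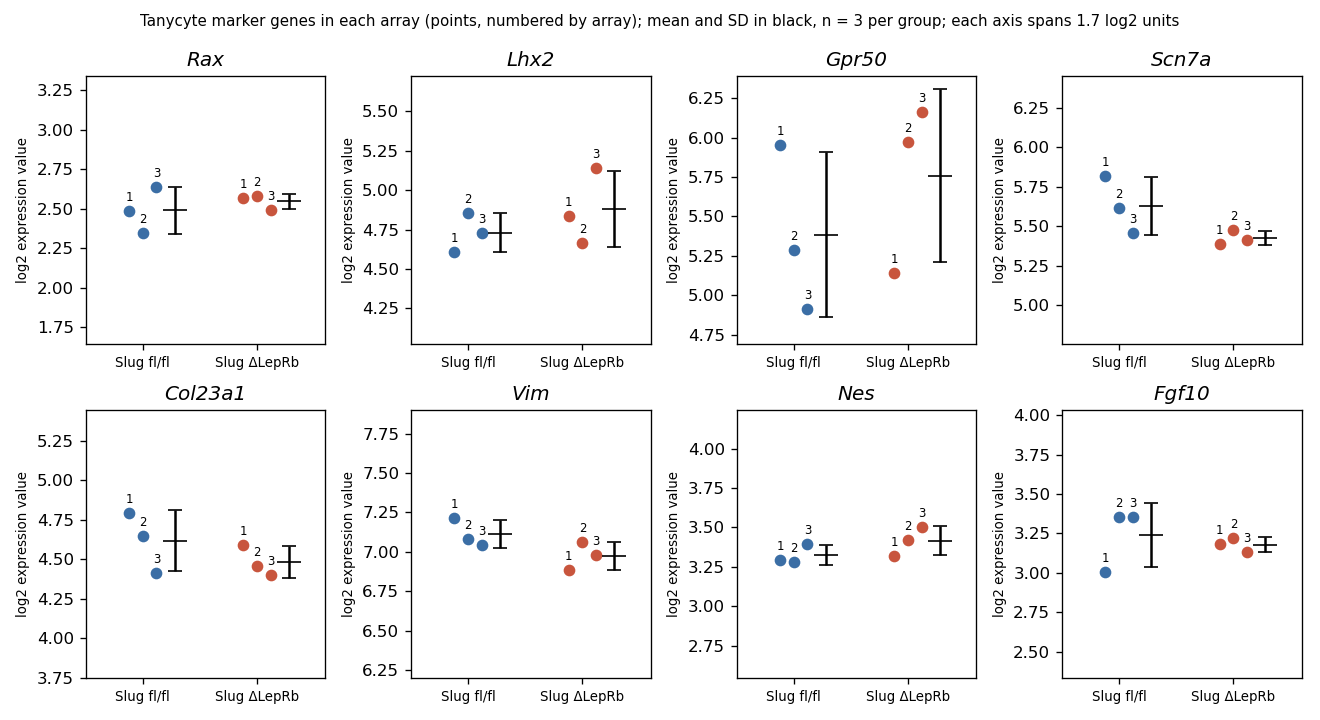
Log2 expression value (vertical axes, all of the same span) of the 8 tanycyte marker genes in the 3 control arrays (blue) and the 3 ΔLepRb arrays (red), numbered by array, with the mean and SD in black. The groups overlap for every gene, and the points of Gpr50 lie farthest apart, between 4.92 and 6.17.

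The paired-type homeobox gene Rax, needed to form the eye and the hypothalamus and the defining tanycyte gene of the 8, measured 2.49, 2.34, and 2.64 (log2) in the control arrays. It measured 2.57, 2.58, and 2.49 in the ΔLepRb arrays. The second group lay inside the range of the first. The log2 difference was 0.058 (SE 0.10, 95% confidence interval -0.18 to 0.29, adjusted p = 0.96, limma), and without control array 2 it was -0.015. The row was dim, since only 19.6% of all genes had a lower mean, and how far it stands above background could not be read from the deposited table. The gene by which tanycytes are most often identified was thus measured by a row below the median of all genes.

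Lhx2, a LIM-homeobox gene that maintains tanycyte identity in mice, was 4.61, 4.85, and 4.73 in the control arrays and 4.84, 4.66, and 5.14 in the others. ΔLepRb array 3 was the highest of the 6, and the other 2 arrays of its group fell among the controls. The log2 difference was 0.15 (SE 0.13, adjusted p = 0.91, limma), and it was 0.020 without that array.

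Gpr50 encodes an orphan relative of the melatonin receptors and is made by tanycytes and by neurons of the dorsomedial hypothalamus in mice. It was 5.95, 5.29, and 4.92 in the control arrays and 5.14, 5.97, and 6.17 in the ΔLepRb arrays. High and low arrays occurred in both groups, with array 1 high among the controls and array 1 low among the others. The means were 5.38 ± 0.52 and 5.76 ± 0.55 (SD, n = 3 each), so the difference of 0.38 (SE 0.29, 95% confidence interval -0.28 to 1.03) was smaller than the spread within either group. The adjusted p was 0.89 (limma), and the two-sided exact permutation p was 0.40, where 0.10 is the smallest that 3 arrays against 3 allow. The gene would pass the call if control array 1 were left out (0.66, adjusted p = 0.98) or ΔLepRb array 1 (0.69, adjusted p = 0.78, limma). With control array 3 left out the difference was 0.14.

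Gpr50 varied more between arrays of a group than the other marker genes. Its SD pooled within the groups was 0.53 on the log2 scale, and only 13 of the 10754 genes above the median of all genes had a larger one. The median SD of these 10754 genes was 0.12. For the other marker genes above that median, the same SD was 0.19 for Lhx2, 0.15 for Col23a1, 0.13 for Scn7a, and 0.090 for Vim. The dim rows of Rax (0.11), Nes (0.078), and Fgf10 (0.15) all had a smaller SD than the median of 0.16 among genes below that level. The mean of all 8 genes, each centered on its own mean, ran from -0.085 to 0.079 across the 6 arrays, and without Gpr50 it ran only from -0.036 to 0.028. No array was high or low for the mean of the other 7 genes by an amount near the Gpr50 differences. That mean can hide genes that move in opposite directions. In control array 1, Scn7a (0.29), Col23a1 (0.24), and Vim (0.17) lay above their own means. Lhx2 and Fgf10 (both -0.20), Nes (-0.076), and Rax (-0.033) lay below theirs. Gpr50, Scn7a, Col23a1, and Vim all fell from control array 1 to 2 to 3. In the ΔLepRb arrays Gpr50 rose in that order and Col23a1 fell. Whether other marker genes share the Gpr50 spread was not tested.

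**Figure D2:**
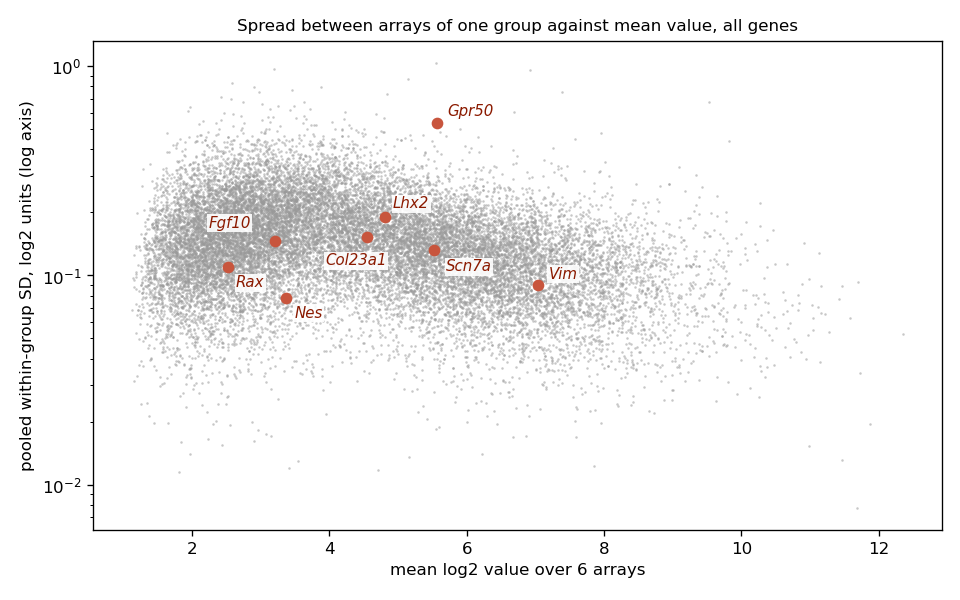
SD pooled within the 2 groups (vertical axis, log2 units on a log axis) against the mean log2 value over 6 arrays (horizontal axis), with every gene as a gray dot and the 8 tanycyte marker genes in red. Gpr50, at 0.53, lies above nearly all genes of its mean value, and the other 7 lie within the cloud.

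Scn7a encodes a sodium channel known in mice as a sensor of sodium levels in glia of the circumventricular organs, and it marks tanycytes of the median eminence. It was 5.82, 5.61, and 5.45 in the control arrays and 5.39, 5.47, and 5.42 in the ΔLepRb arrays. The lower 3 arrays of the 6 were not all of one group, because control array 3 lay below ΔLepRb array 2. Of the 8 genes it had the smallest unadjusted p, with a log2 difference of -0.20 (SE 0.11, 95% confidence interval -0.45 to 0.047, adjusted p = 0.86, limma, two-sided exact permutation p = 0.20). The difference was -0.11 without control array 1 and -0.29 without control array 3. In the latter fit the unadjusted p was 0.030 (adjusted p = 0.81, limma), and the gene was still not called.

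Col23a1, which encodes a collagen anchored in the cell membrane, was 4.79, 4.65, and 4.41 in the control arrays and 4.59, 4.46, and 4.40 in the others. Its log2 difference was -0.14 (SE 0.12, adjusted p = 0.91, limma), smaller than the pooled SD. It was -0.050 without control array 1 and -0.24 without control array 3. Control array 1 was the highest of the 6 for Col23a1, Scn7a, and Vim. It was the lowest for Lhx2 and Fgf10.

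The 2 filament genes differed in opposite directions. Vim (vimentin), a filament of tanycyte processes that is also made by ependymal, endothelial, and meningeal cells, was 7.21, 7.08, and 7.04 in the control arrays and 6.88, 7.06, and 6.98 in the ΔLepRb arrays. Nes (nestin), a filament of neural progenitors, was 3.29, 3.28, and 3.39 in the first group and 3.32, 3.42, and 3.50 in the second. For both genes the groups overlapped by 1 array on each side. The log2 differences were -0.14 (SE 0.10, adjusted p = 0.89, limma) for Vim and 0.090 (SE 0.097, adjusted p = 0.92, limma) for Nes. Without control array 1 the Vim value was -0.087, and without ΔLepRb array 3 the Nes value was 0.046.

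Fgf10, a growth factor of beta tanycytes, was 3.01, 3.36, and 3.35 in the control arrays and 3.19, 3.22, and 3.13 in the others. The second group lay wholly within the first. The log2 difference was -0.060 (SE 0.12, adjusted p = 0.96, limma), and in the row not used, the dimmer of the 2, it was -0.10. In the row used it was -0.18 without control array 1, -0.00050 without control array 2, and -0.0025 without control array 3. In each of the 6 arrays Rax, Nes, and Fgf10 were under 4.18, the median of the gene means.

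The intervals show what size of change 3 arrays a group could leave unseen. For Rax, Col23a1, Vim, Nes, and Fgf10, the 95% confidence interval lay between the fold limits of the call, -0.42 and 0.32 on the log2 scale. The rows of Rax, Nes, and Fgf10 were dim and the deposited values give no background. Their intervals therefore bound the measured values and not the change in transcript. For Scn7a the interval crossed the lower limit, for Lhx2 the upper (-0.15 to 0.45), and for Gpr50 the upper, up to 2.04-fold. For these 3 genes a difference as large as the call asks for lay inside the interval.

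**Figure D3:**
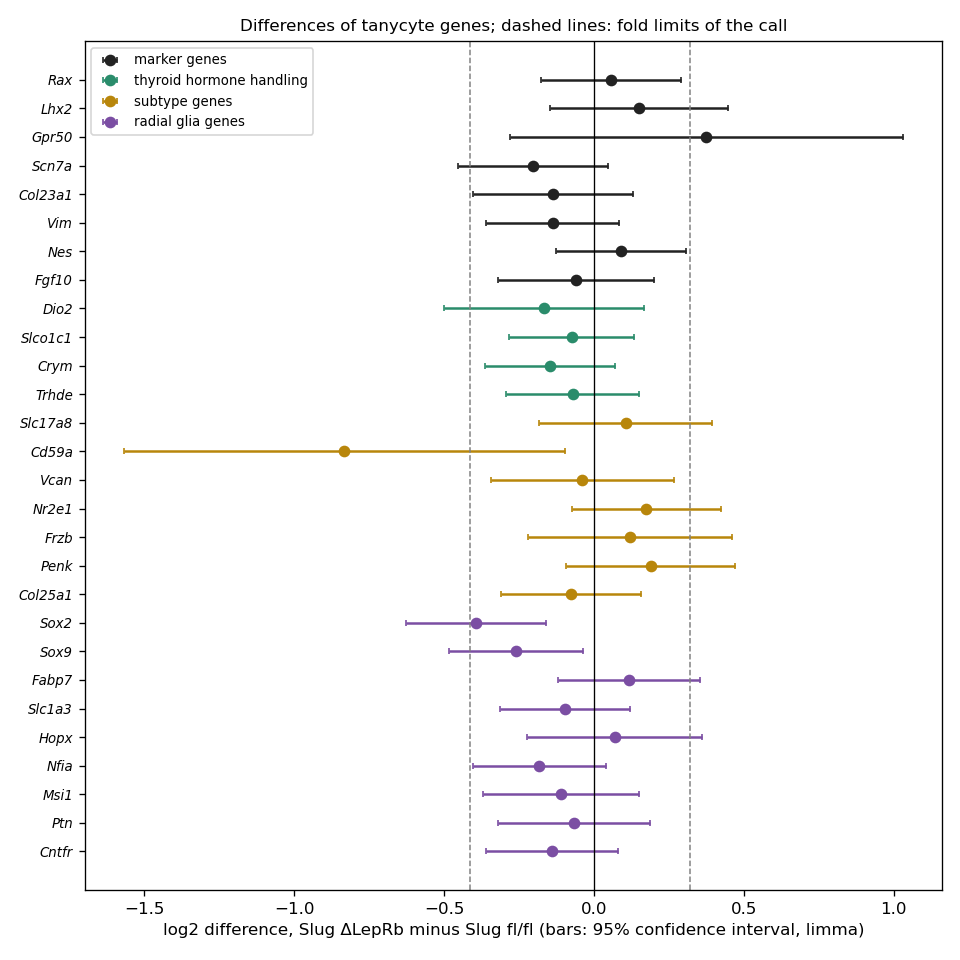
Log2 difference between the groups (horizontal axis, Slug ΔLepRb minus Slug fl/fl) with its 95% confidence interval for the 8 tanycyte marker genes (black) and for genes of thyroid hormone handling (green), tanycyte subtypes (gold), and radial glia (purple), with the fold limits dashed. The intervals of all 8 marker genes include 0, while those of Cd59a, Sox2, and Sox9 lie below it.

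Other genes that tanycytes use were read in the same fit. Of 4 measured genes of thyroid hormone handling, none was called and all 4 means were lower, with a median log2 difference of -0.11. Dio2, the deiodinase by which tanycytes activate thyroid hormone, was 4.91 ± 0.14 and 4.74 ± 0.29 (SD, n = 3 each), and Crym, a cytosolic thyroid hormone binding protein, was 4.29 ± 0.09 and 4.14 ± 0.07. Both pairs of groups overlapped, and of the 4 genes only Slco1c1, a thyroxine transporter, had its groups apart (-0.074). The summed linear level of the 4 genes was 188 to 201 in the control arrays and 179 to 185 in the ΔLepRb arrays, also apart. Bright genes weigh most in this sum, and the brightest were Slco1c1 itself and Trhde (-0.071, groups overlapping). Without ΔLepRb array 1, the lowest for Dio2, the Dio2 difference was -0.00079. Of 7 subtype genes, 1 was lower and none higher (median 0.11). It was Cd59a (-0.83, adjusted p = 0.84, limma), an inhibitor of complement attack. ΔLepRb array 3, at 5.29 against 6.82 and 6.71 in its group, set much of that value, which was -0.34 and no longer called without it. Cd59a was also not called by the methods' t-test, with the intensity trend, or without any 1 control array. Col25a1, Frzb, Penk, and Vcan, which mark beta or alpha tanycytes in mice, differed by -0.077, 0.12, 0.19, and -0.039 on the log2 scale. Nr2e1, a nuclear receptor of neural stem cells, differed by 0.18. Of all genes, 97.1% had a lower mean than Penk, and which cells gave these values was not tested.

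Of 9 radial glia genes shared with tanycytes, none was called, 7 means were lower, and the median log2 difference was -0.11. Sox2, a transcription factor of neural stem cells that adult tanycytes and astrocytes retain, was 7.19, 7.09, and 6.94 in the control arrays and 6.78, 6.68, and 6.59 in the ΔLepRb arrays. Every array of the second group lay below every array of the first. The log2 difference was -0.39 (SE 0.10, adjusted p = 0.74, limma, two-sided exact permutation p = 0.10), which missed the ratio limit of 0.75 at 0.762. It passed the call with a limit of 0.8, without control array 3 (-0.46), and without ΔLepRb array 1 (-0.44). Sox9, a glial transcription factor, differed by -0.26 (SE 0.10, adjusted p = 0.84, limma), also with the groups apart. The summed linear level of the 9 genes was 1555 to 1645 in the control arrays and 1454 to 1495 in the ΔLepRb arrays. Bright genes weigh most in this sum, and the brightest, Slc1a3 (-0.095) and Ptn (-0.068), had overlapping groups. For 3 of the 9 the groups were apart, against 11.5% of all genes. Besides Sox2 and Sox9 this held for Nfia, a gliogenic factor, at -0.18. Of the astrocyte genes listed, none of 7 was called and 5 means were lower (median -0.092). Aqp4, the water channel of astrocyte endfeet, was at -0.19, S100b, a calcium-binding protein, at -0.18, and Gja1, their main gap junction protein, at -0.12. Aldh1l1 (-0.092) and Agt (-0.016) were also lower, while Slc1a2 (0.084) and Aldoc (0.094) were higher. The summed linear level of the astrocyte genes was 2104 to 2350 in the control arrays and 2138 to 2351 in the ΔLepRb arrays, so the groups overlapped. Without control array 1 the Aqp4 difference was -0.021 and that of S100b was -0.092. Whether astrocytes or tanycytes carry the Sox2 and Sox9 values was not tested.

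Among 13 relatives and receptors of the marker genes, 1 was lower and none was higher (median -0.035). It was Lhx9, the closest paralog of Lhx2, which was 3.78, 3.76, and 4.25 in the control arrays and 3.67, 3.39, and 3.29 in the others. The log2 difference was -0.48 (SE 0.15, adjusted p = 0.81, limma), and the groups were apart. It was no longer called by the methods' t-test, without control array 3 (-0.32), or without ΔLepRb array 3 (-0.40). Fgfr2, the gene of the receptor that Fgf10 binds, was 6.31, 6.21, and 6.33 against 5.96, 6.01, and 6.13. Its groups were apart and its log2 difference was -0.25 (SE 0.097, adjusted p = 0.84, limma), above the ratio limit. Mtnr1a and Mtnr1b, the melatonin receptors to which Gpr50 is related, differed by 0.057 and -0.035. Among 6 developmental regulators none was called, and Hes5, an effector of Notch signaling, had the smallest p, with a log2 difference of -0.50 (SE 0.23, adjusted p = 0.84, limma) that was -0.23 without ΔLepRb array 3. It passed the call in 6 of 15 alternative fits. Six6, a homeobox gene of the eye and hypothalamus, was next at -0.20, or -0.094 without ΔLepRb array 1. The median of the 6 was 0.0096.

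The lists of cells and tissues that border tanycytes held 1 called gene, where 2.01% of all genes were called and 0.577% were called lower. Among 8 genes of ciliated ependymal cells, which line the same ventricle, 1 was lower and none higher. That gene was Ccdc153, at 5.38, 5.41, and 5.56 in the control arrays and 4.74, 4.85, and 5.01 in the others. Its log2 difference was -0.58 (SE 0.11, adjusted p = 0.40, limma), and it was called in all 15 alternative fits. Foxj1, the master regulator of motile cilia, differed by 0.15 with the groups overlapping, Ak7, an adenylate kinase of cilia, by 0.20, and the median of the 8 was 0.027. Ak7 was 0.10 without ΔLepRb array 3 and passed the call at 0.35 without ΔLepRb array 1. The summed linear level of the 8 was 178 to 204 in the control arrays and 176 to 187 in the others. None of 7 endothelial and mural, 6 meningeal, and 5 choroid plexus genes was called, and the median differences were 0.019, 0.14, and 0.14. The smallest p belonged to Pecam1 (0.23) and Rgs5 (-0.14) among the vessel genes, to Col1a1 (0.23) and Pdgfra (0.18) among the meningeal genes, and to Kl (0.21) and Folr1 (-0.11) among the choroid plexus genes. Kl was 0.084 without ΔLepRb array 1 and passed the call at 0.35 without ΔLepRb array 2. None of 5 genes of the pars tuberalis and pituitary, which adjoin the median eminence, was called (median -0.019), and all 5 had means under the median of all genes, with Pitx1 at -0.21. Prl (prolactin), which passed the call only without ΔLepRb array 2 or with the replicate block, was 5.16 in ΔLepRb array 1 and 2.60 to 3.01 in the other 5 arrays, and the summed linear level of the 5 genes was 75.4 in that array against 43.1 to 54.6. Prl itself weighed most in the sum of that array. Gh was also highest there, at 3.79 against 2.76 to 3.11 in the other arrays. Tshb, at 3.88, was at its lowest of the 6 arrays there, and Cga, at 2.54, was near its lowest of 2.47. Pitx1, at 2.41, lay among its other values. Gpr50 was 5.14 in the same array. The part of pituitary RNA in the Gpr50 values was not tested.

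**Figure D4:**
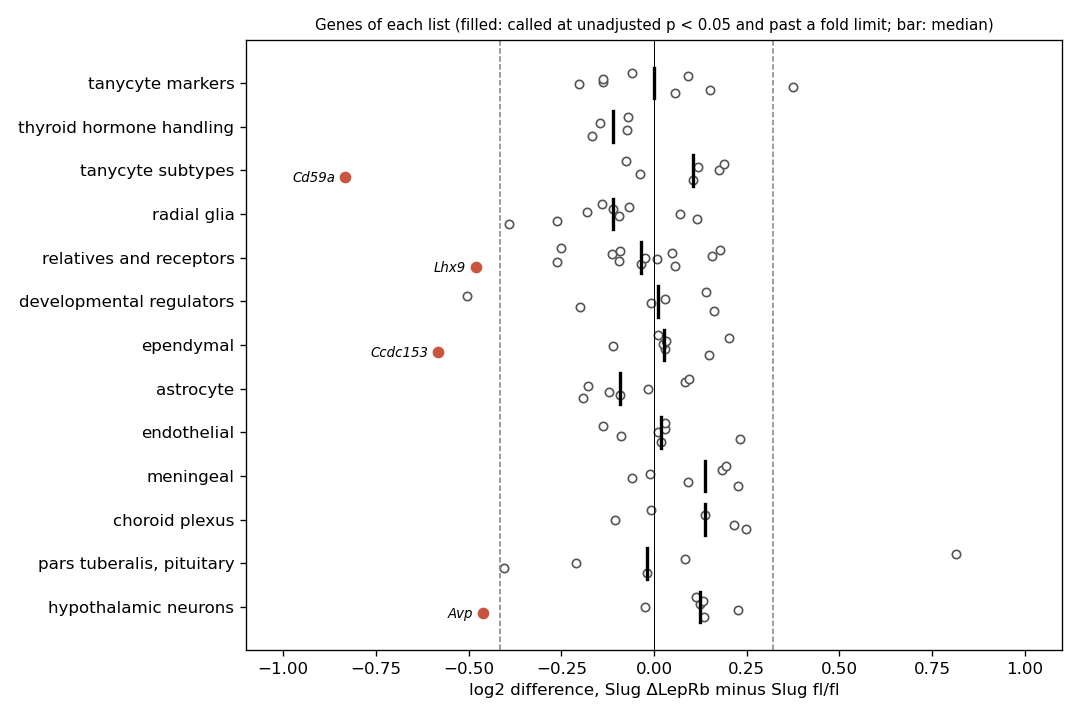
Log2 difference between the groups (horizontal axis, Slug ΔLepRb minus Slug fl/fl) for each measured gene of the 13 lists, with called genes filled and named and the median of each list as a bar. All 8 tanycyte marker genes are open circles, and the 4 filled genes, Cd59a, Lhx9, Ccdc153, and Avp, are all lower in the ΔLepRb arrays.

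The E2 box, a sequence that Slug is known to bind, reads CACCTG on one strand and CAGGTG on the other. The RefSeq promoter table of GRCm38.p6, from 250 bases before to 50 bases after each start site, held 7 of the 8 marker genes in 8 windows, Lhx2 having 2. None of these windows held an E2 box, which 20.2% of the 32851 windows of this length and 22.6% of 27025 genes did. These letters being missing from so short a window says nothing on whether Slug binds elsewhere at these genes.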

How the data were processed

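Per-array expression was deposited by the authors as 1 table of log2 values, 24663 rows for 6 arrays, running from 0.90 to 12.43; the log base was taken from that range. MAS5 appears in the submitters' processing notes, with no role stated, and the sources used here do not give the normalization, background correction, or filters. The table holds no background signal. Precision is limited by how few arrays there are. Scanner files were not used here.

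Rows with 1 gene symbol (21925) were kept, those with several (818) or none (1920) were left out, and the brightest row per gene gave 21507 genes. The ΔLepRb and control arrays were fitted in limma 3.58.1 under R 4.3.3 with lmFit and eBayes, no covariate, and Benjamini-Hochberg adjustment over all genes. The members and all 13 lists were chosen with earlier results of these data known. Genes were named by rule: the 8 members, Snai2, Lepr, every called gene of a list, the 2 with the smallest p in each list, and the 5 most like the members' mean profile. Others were named for their role, after their values were seen. Some listed genes are not reported here. The fit was tested on simulated data. Of 15 alternatives, 6 left out 1 array each.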

Additional observations from a re-analysis of the deposited data

How the results depend on the processing

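In 117 alternative fits of the 8 tanycyte marker genes, the lowest adjusted p was 0.696 (Scn7a with dim genes left out, limma), 2 fits called a gene, Gpr50 both times, and 1 turned a direction, that of Rax. As each array was left out, Rax ran from -0.015 (without control array 2) to 0.13, Gpr50 from 0.14 to 0.69, the count of marker genes called from 0 to 1, and their median log2 difference from -0.020 to 0.062 (without control array 3). With dim genes left out, Rax, Nes, and Fgf10 could not be tested and the median of the other 5 was -0.14. With the replicate number as a block, none of the 8 was called, Gpr50 was 0.38 (adjusted p = 0.95, limma), and 486 of all genes were called. Deviations of same-numbered arrays correlated at -0.0029, -0.0096, and -0.058 across genes, and those of differently numbered arrays at -0.052 to 0.059. No pairing by number was thus seen, which does not show that there was none. Over all genes, 433 were called, against 218 by the methods' t-test, 213 after dropping dim genes, where fewer genes were tested, and 521 to 651 as each array was left out (651 without ΔLepRb array 1). The cause of the t-test's lower count was not tested. Of 385 alternative fits of 26 other named genes, 11 lost and 14 gained a call, and none turned a direction. The table gives no signal over background, which limits what the dim rows can show.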

Other observations

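Over the 6 arrays, the mean profile of the 8 marker genes was most like those of Zfp160, Nrcam, Ten1, Olfm3, and Stx12 among 10748 other genes above the median, with Pearson's r from 0.982 to 0.993. That profile mostly follows Gpr50, whose centered values ran from -0.66 to 0.59 and had the sign of the profile in each of the 6 arrays. Without Gpr50 the profile ran only from -0.036 to 0.028, and likeness to it was not tested. The 5 genes were picked as the highest values, so r is only a description, mainly of likeness to Gpr50. Nrcam, a neuronal adhesion molecule, ran only from 8.27 to 8.35.

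Among 7 hypothalamic neuron genes, 1 was lower and none higher, with a median log2 difference of 0.12. It was Avp (-0.46, adjusted p = 0.77, limma), which was no longer called with control array 2 left out (-0.34) or ΔLepRb array 1 left out (-0.38). Oxt (oxytocin) was 8.12 ± 0.21 in the control arrays and 8.35 ± 0.099 in the others (SD, n = 3 each), with the groups overlapping, and it passed the call at 0.35 without control array 2. Pdgfra, a receptor of oligodendrocyte progenitors and meningeal fibroblasts, was 6.73 ± 0.037 and 6.91 ± 0.047 (SD, n = 3 each), with the groups apart and a log2 difference of 0.18 (adjusted p = 0.84, limma). Col1a1, a fibroblast collagen, also had its groups apart, at 4.60 ± 0.040 and 4.83 ± 0.12 (SD, n = 3 each), with a 1.17-fold difference (adjusted p = 0.84, limma). These were the 2 of 6 meningeal genes with groups apart, against 11.5% of all genes. Groups overlapped for Slc6a13 (0.19), Col1a2 (0.091), Dcn (-0.058), and Lum (-0.011). The summed linear level of the 6 genes was 203 to 237 in the control arrays and 225 to 262 in the ΔLepRb arrays, so it overlapped.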
